A study of Mus musculus with 32 samples.

Results

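The 10 genes described here are receptors, ligands and transcriptional targets of the Notch pathway. They are the receptor genes Notch1, Notch2 and Notch3, the ligand genes Dll1, Dll3 and Jag1, and the target genes Hes1, Hes5, Hey1 and Hey2. They were taken by symbol from the 27998 gene rows of a single-cell count matrix of the mouse median eminence, and all 10 were found. The list was given by name, but it was drawn up with results of these data known. Counts of its members set against all genes are therefore descriptions and not tests. A wider list of 63 pathway genes, which holds the 10, was used as context.

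Notch receptors are membrane proteins that are cut when a ligand on a neighbouring cell binds them. The freed intracellular part enters the nucleus, joins the DNA-binding protein RBPJ and switches on genes such as those of the Hes and Hey families, which encode repressors. In the brain the pathway is known for keeping precursor cells from differentiating, and for the building of arteries and the cells that wrap them.

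The median eminence lies at the base of the hypothalamus. Tissue came from male C57BL/6j mice (C57B/L6 in the labels) aged 40 to 47 days, of which 5 had fasted for 16 h and 5 had then been refed for 1 h. The mice of each condition were pooled before dissociation, and each pool gave 2 libraries of sorted cells that excluded a dye of dead cells. No genotype, transgene or drug differed between the conditions. The matrix holds 5982 cells whose barcodes end in a number from 1 to 4, and no label ties a number to a library or condition. Refed and fasted cells were therefore not compared. The cells were treated as 1 sample, with no p-value, and values are also given for each number, which hold 1642, 1493, 1359 and 1488 cells.

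Cells had a median of 3837 unique molecular identifiers (UMIs, counted molecules), and 21 barcodes occurred under more than 1 number. Clustering was done without the 63 pathway genes, so that no member helped to define the group in which it was measured. It gave 24 clusters, of which 21 could be named from markers. The 13 named cell types held from 64 pars tuberalis-like cells to 1423 tanycyte-like cells. Tanycytes are the elongated glia that line the floor of the third ventricle. Their markers, and those of 11 other types, were each highest in the cells named for them, and for pars tuberalis-like cells this held for 6 of 7 markers. As the same markers named the clusters, this is no independent check of the names. A tanycyte-like cluster of 394 cells also had Gfap and Rarres2 among its leading genes. Its 10 leading genes held 2 tanycyte and 2 ependymocyte markers, so its name is less sure. A level is given as CPM, the UMIs of a gene per 1000000 UMIs summed over the cells of a type. Intervals are 95% exact Poisson intervals for a level and exact binomial intervals for a ratio of levels, and they cover counting error alone.

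The members differed in the cell types where they were highest, and some types had high levels of ligands, receptors or targets together. Dll1 and Dll3 were highest in oligodendrocyte precursor (OPC)-like cells, Jag1 and Notch3 in mural-like cells, Notch2 in tanycyte-like cells, Hes1 in endothelial-like and tanycyte-like cells, and Hes5 in astrocyte-like and OPC-like cells. A gene was called specific when its highest type had at least 2 times the level of the next after 10 CPM was added to both. This held for 4 of the 10 members, against 16.9% of the 13862 genes with at least 50 UMIs. Both Dll genes were called in OPC-like cells, as were 0.938% of the genes tested, and Jag1 and Notch3 in mural-like cells, as were 1.41%. Notch3 and Dll3 were called in every alternative computed, and Dll1 in all but that with a pseudocount of 50 CPM. The Jag1 call was lost without number 4, in thinned cells, with a mean over cells and with that pseudocount, under which 2 members were called. Of the other pathway genes with at least 50 UMIs, 9 of 45 were called. No p-value can be attached to these counts.

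**Figure D1:**
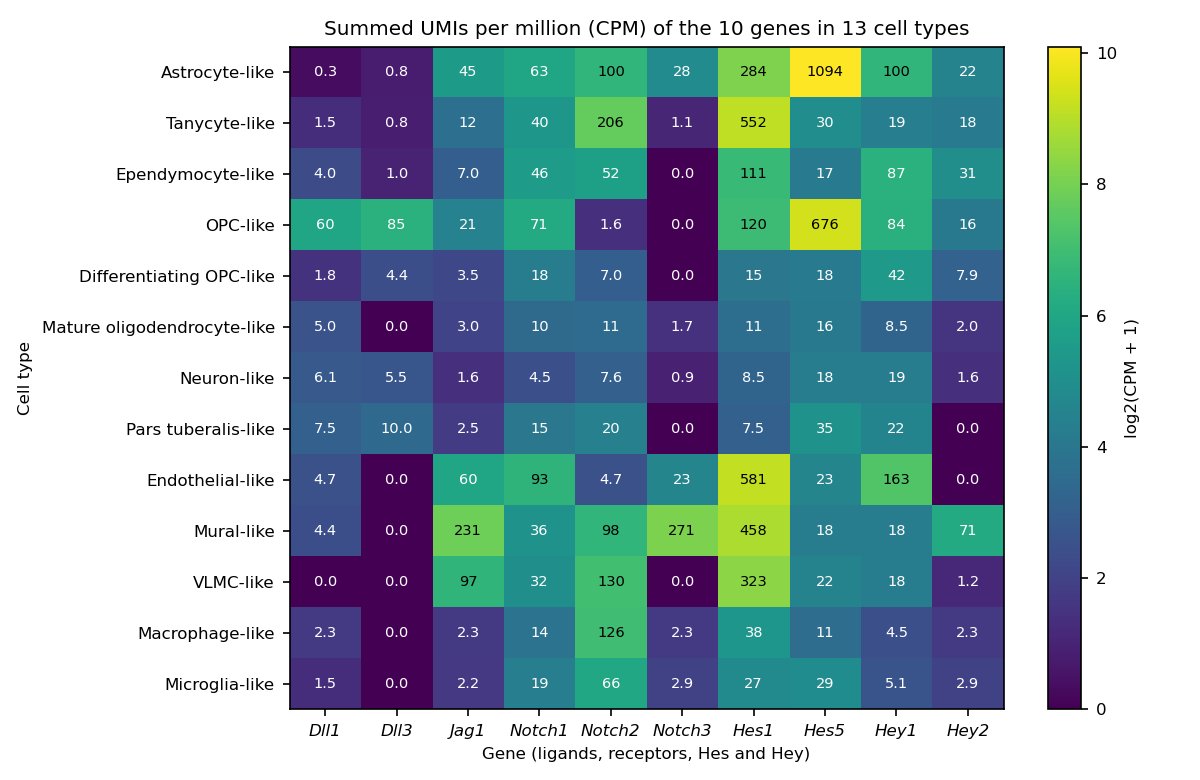
Level of each of the 10 genes (columns, ligands first, then receptors, then Hes and Hey genes) in each of 13 named cell types (rows), with the CPM of summed UMIs printed in each field and log2(CPM + 1) as colour. Hes5 stands at 1094 CPM in astrocyte-like and 676 CPM in OPC-like cells and at 34.9 CPM or less in the other types, whereas Hes1 is above 100 CPM in 7 types.

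Among the ligands, Dll1 and Dll3 were OPC genes. Dll1 (ENSMUSG00000014773; GRCm38 chr17:15367354-15376872, minus strand) encodes a ligand that activates Notch on neighbouring cells. In OPC-like cells its level was 58.8, 61.6, 38.2 and 79.4 CPM in barcode numbers 1 to 4. Over all numbers it was 59.9 CPM (interval, 47.2 to 75.0), and 20.9% of the 311 cells had a UMI. The next type, pars tuberalis-like cells, had 7.48 CPM from 3 UMIs, and neuron-like cells had 6.11 CPM, a level 9.81-fold lower than in OPC-like cells (interval of the fold, 6.63 to 14.7). All 4 numbers gave the highest Dll1 level in OPC-like cells. These cells held 46.3% of all Dll1 UMIs in the matrix.

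Dll3 (ENSMUSG00000003436; chr7:28293553-28302238, minus strand) encodes a divergent ligand known to inhibit Notch within its own cell. It had 90.4, 108, 59.3 and 71.8 CPM in OPC-like cells of numbers 1 to 4. Over all numbers it had 85.2 CPM (interval, 69.9 to 103), and 28.9% of cells had a UMI. Pars tuberalis-like cells came next, with 9.97 CPM from 4 UMIs, and the OPC level was 15.5-fold that of neuron-like cells (interval, 10.5 to 23.1). In every number it exceeded all other types. No Dll3 UMI was found in mature oligodendrocyte-like, microglia-like, macrophage-like, endothelial-like, mural-like or vascular and leptomeningeal (VLMC)-like cells. OPC-like cells held 65.9% of its UMIs.

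Jag1 (ENSMUSG00000027276; chr2:137081456-137116644, minus strand), the ligand best known from vessel walls, was highest in mural-like cells, the smooth muscle cells and pericytes around vessels. There it had 231 CPM (interval, 173 to 303), followed by VLMC-like cells at 97.3 CPM, endothelial-like cells at 60.5 CPM and astrocyte-like cells at 44.6 CPM. The mural level was 2.38-fold the VLMC level (interval, 1.64 to 3.42). It varied widely between the barcode numbers, with 169, 24.6, 152 and 459 CPM in numbers 1 to 4, and in number 2 it was below the VLMC level of 137 CPM. Without number 4 the log2 ratio of mural to VLMC levels was 0.39 in place of 1.25. Astrocyte-like cells varied less, with 38.3, 51.4, 44.0 and 44.7 CPM. Being far more numerous, they held 36.2% of all Jag1 UMIs.

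The 75 mural-like cells were a mixture, and the Jag1 level was uneven within it. In 43 cells the summed smooth muscle markers had more UMIs than the summed pericyte markers, in 31 cells fewer. Jag1 had 307 CPM (interval, 227 to 406) in the first set and 47.3 CPM (interval, 9.76 to 138) in the second, from 49 and 3 UMIs. The ratio was 6.48-fold (interval, 2.09 to 32.5). It rested largely on number 4, which had 33 of the 49 UMIs. Without that number it was 3.29-fold with an interval, 0.943 to 17.6, that includes equality, and without number 1, which leaves 1 UMI in the second set, it was 12.6-fold (interval, 2.14 to 510). Numbers 1 to 4 held 9, 4, 14 and 16 cells with more smooth muscle UMIs and 12, 13, 4 and 2 with more pericyte UMIs, so number 2, where Jag1 was lowest, had the fewest of the first kind. In the first kind alone, Jag1 still ran from 0 CPM in the 4 cells of number 2 to 498 CPM in the 16 cells of number 4. In 4 of the 75 cells the sums differed by at most 20% of their total.

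Notch3 (ENSMUSG00000038146; chr17:32120820-32166852, minus strand), the receptor of vascular smooth muscle and pericytes, was also a mural gene but did not follow Jag1 within the mixture. It had 320, 320, 186 and 278 CPM in mural-like cells of numbers 1 to 4, and these were the highest values of the gene in every number. Over all numbers it had 271 CPM (interval, 207 to 348), 9.59-fold the level in astrocyte-like cells (interval, 6.90 to 13.2). Cells with more smooth muscle UMIs had 238 CPM and those with more pericyte UMIs 363 CPM, a ratio of 0.656 whose interval, 0.381 to 1.15, includes equality. Heyl, a target gene of the same family as Hey1 and Hey2, had 182 CPM and 363 CPM in the same sets, a ratio of 0.50 (interval, 0.279 to 0.905), and without number 1 or 2 that interval included equality. Notch3 was not detected in OPC-like cells, where 0 UMIs of 1267837 were counted, which allows up to 2.37 CPM. It had no UMI in differentiating OPC-like, VLMC-like, ependymocyte-like or pars tuberalis-like cells either. In astrocyte-like cells it had 28.3 CPM, and 7.32% of cells had a UMI. Astrocyte-like cells, being far more numerous, held 54.1% of all Notch3 UMIs, and mural-like cells 29.8%.

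Notch1 (ENSMUSG00000026923; chr2:26457903-26516663, minus strand), the most widely used receptor of the family, had no single highest type. Endothelial-like cells had 93.02 CPM (interval, 56.8 to 144), OPC-like cells 71.0 CPM (interval, 57.1 to 87.3) and astrocyte-like cells 62.7 CPM (interval, 55.1 to 71.0), and these intervals overlapped. The endothelial level over the OPC level was 1.31-fold (interval, 0.764 to 2.15). In OPC-like cells the 4 numbers gave 74.6, 55.4, 97.5 and 60.5 CPM, and in astrocyte-like cells 59.3, 73.8, 50.3 and 64.4 CPM, so the order of the types changed from number to number. Neuron-like cells had the lowest level, 4.47 CPM.

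Notch2 (ENSMUSG00000027878; chr3:98013527-98150361, plus strand) was low in the oligodendrocyte lineage. Its level was highest in tanycyte-like cells, with 228, 206, 195 and 187 CPM in numbers 1 to 4 and 206 CPM over all (interval, 195 to 218). VLMC-like cells followed with 130 CPM and macrophage-like cells with 126 CPM, and number 4 had its highest value in macrophage-like cells. Tanycyte-like cells exceeded VLMC-like cells 1.58-fold (interval, 1.29 to 1.94) and held 56.7% of all Notch2 UMIs. All 3 tanycyte-like clusters had similar levels, 201, 207 and 212 CPM. OPC-like cells had the lowest level of the 13 types, 1.58 CPM from 2 UMIs, whereas their Notch1 level was among the highest. Microglia-like cells had 66.2 CPM.

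Astrocyte-like cells formed 2 clusters that differed sharply in Notch2. The larger cluster, of 914 cells, had 30.9 CPM (interval, 24.4 to 38.7), and the smaller, of 506 cells, had 215 CPM (interval, 192 to 240), close to the tanycyte level. In the larger cluster numbers 1 to 4 had 30.5, 27.9, 40.6 and 26.7 CPM, and in the smaller 218, 252, 231 and 165 CPM. The ranges did not overlap, and the ratio was 6.96-fold (interval, 5.40 to 9.07). Among 7788 genes with at least 50 UMIs in both clusters together, Notch2 had the highest log2 difference, although it was kept out of the clustering. Of these genes 0.847% were at least 1 log2 unit higher in the smaller cluster. The next were Spry2, a feedback inhibitor of receptor tyrosine kinases, at 70.0 and 429 CPM, and Gfap, the intermediate filament of reactive and fibrous astrocytes, at 57.0 and 311 CPM. As the clusters were made from these same cells, this is a description and not a test.

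Other members differed less between the astrocyte-like clusters. Jag1 had 30.5 CPM in the larger and 68.1 CPM in the smaller, a ratio of 2.23 (interval, 1.64 to 3.05), and was higher in the smaller cluster in all 4 numbers. Hes5 had 1140 and 1016 CPM, a ratio of 0.891 (interval, 0.836 to 0.949). In numbers 1 to 4 the larger cluster had 1092, 1066, 1166 and 1270 CPM. The smaller had 729, 1016, 1108 and 1216 CPM, so the gap was wide in number 1 and small in the others. For Notch1, Notch3, Hes1, Hey1 and Hey2 the interval of the ratio included equality. Median depth was alike, 2617.5 and 2775.5 UMIs per cell.

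**Figure D2:**
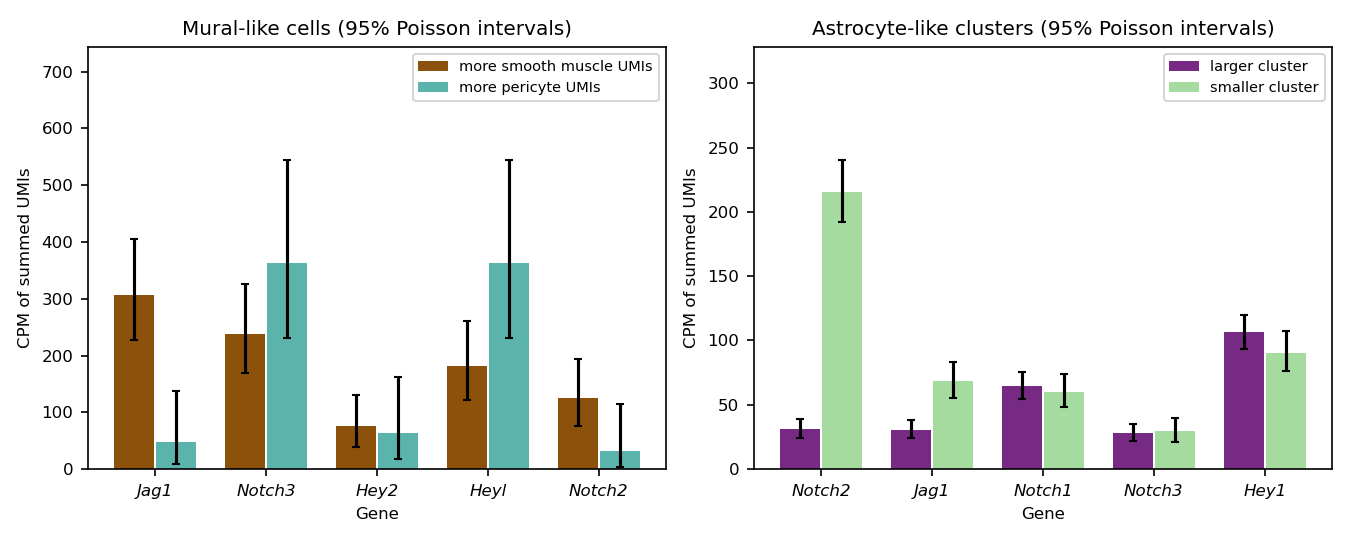
Levels (CPM of summed UMIs, bars, with 95% Poisson intervals) of 5 genes in mural-like cells with more smooth muscle or more pericyte UMIs (left) and of 5 genes in the larger and smaller astrocyte-like clusters (right). Jag1 is at 307 against 47.3 CPM on the left, and Notch2 at 30.9 against 215 CPM on the right, where Notch1 and Notch3 bars are alike.

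Hes5 (ENSMUSG00000048001; chr4:154960923-154962371, plus strand), a direct Notch target and repressor of differentiation, was high in astrocyte-like and OPC-like cells and low elsewhere. In astrocyte-like cells numbers 1 to 4 had 968, 1048, 1144 and 1247 CPM, and over all numbers 1094 CPM (interval, 1061 to 1127). OPC-like cells had 626, 474, 788 and 907 CPM, and 676 CPM over all (interval, 631 to 723). The astrocyte level was 1.62-fold the OPC level (interval, 1.5 to 1.74) and higher in all 4 numbers. A UMI was found in 74.3% of astrocyte-like and 73.6% of OPC-like cells. The other 11 types had between 11.3 CPM in macrophage-like cells and 34.9 CPM in pars tuberalis-like cells, and the intervals of neighbours in that order overlapped throughout. Macrophages, which should lack Hes5, had a UMI in 3.88% of cells at a median of 3212 UMIs, so levels near theirs cannot be told apart from free RNA in the droplets. Tanycyte-like cells, at 30.3 CPM (interval, 26.1 to 34.97), stood above mature oligodendrocyte-like cells (interval, 12.4 to 19.9) and neuron-like cells (interval, 15.1 to 21.7), and their interval just met that of macrophage-like cells (3.66 to 26.3).

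Hey2 (ENSMUSG00000019789; chr10:30832359-30842801, minus strand), a repressor known from arteries, was a sparse gene with 322 UMIs in the matrix. Mural-like cells had 71.1 CPM (interval, 40.7 to 116) from 16 UMIs, ependymocyte-like cells 31.0 CPM (interval, 21.1 to 44.0) and astrocyte-like cells 22.2 CPM. The mural values were 75.2, 123, 16.9 and 83.4 CPM in numbers 1 to 4, and in number 3 they were below the ependymocyte value of 28.9 CPM. No Hey2 UMI was found in endothelial-like cells, which allows up to 13.95 CPM there. The mural level was 2.29-fold the ependymocyte level (interval, 1.17 to 4.32).

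The promoters of Hes5 and Hey2 are shown because they were the only members with the sequence GTGGGAA, which RBPJ is known to bind, among the 8 with a RefSeq promoter. Both strands were searched, and a match on the opposite strand reads TTCCCAC. Matches are in capitals. The Hes5 promoter is GRCm38.p6 chr4:154960673-154960972, plus strand, and the Hey2 promoter chr10:30842734-30843033, minus strand, both printed along the direction of the gene.

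Hes5: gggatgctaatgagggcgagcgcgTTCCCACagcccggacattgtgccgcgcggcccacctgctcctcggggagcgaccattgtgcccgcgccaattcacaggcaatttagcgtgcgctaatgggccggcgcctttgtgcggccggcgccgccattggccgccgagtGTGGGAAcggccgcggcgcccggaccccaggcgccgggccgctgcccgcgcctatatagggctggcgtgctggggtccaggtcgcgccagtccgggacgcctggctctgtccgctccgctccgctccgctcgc

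Hey2: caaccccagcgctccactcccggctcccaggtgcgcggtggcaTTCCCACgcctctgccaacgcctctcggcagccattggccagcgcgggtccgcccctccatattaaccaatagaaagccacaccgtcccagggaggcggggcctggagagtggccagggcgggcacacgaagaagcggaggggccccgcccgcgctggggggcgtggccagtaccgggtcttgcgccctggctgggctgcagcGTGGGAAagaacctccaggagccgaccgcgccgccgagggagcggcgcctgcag

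Each held 2 matches. In Hes5 they began 226 and 83 bases before the start, and in Hey2 207 and 4 bases before it. GTGGGAA was present in 6.38% of all 32851 promoters and in 7 of 49 pathway genes with a promoter. The units differ, since a gene with several promoters was counted if any of them had a match. The shorter TGGGAA, contained in GTGGGAA, was present in 25.6% of all promoters. A match is a description of the letters, not evidence of binding. Although both promoters carry the motif, the genes differed in their cell types, as given above.

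Hes1 (ENSMUSG00000022528; chr16:30064384-30067796, plus strand), the broadly expressed repressor of the family, was high in types where Hes5 was low. Endothelial-like cells had 581 CPM (interval, 484 to 693), tanycyte-like cells 552 CPM (interval, 534 to 571) and mural-like cells 458 CPM (interval, 374 to 555). The endothelial and tanycyte levels differed 1.05-fold, with an interval from 0.874 to 1.26, and their log2 ratio was -0.25 in thinned cells and -0.27 without number 4, so no order was set. Tanycyte-like cells had 509, 529, 559 and 624 CPM in numbers 1 to 4, whereas the 84 endothelial-like cells ranged from 406 to 1030 CPM. VLMC-like cells had 323 CPM and astrocyte-like cells 284 CPM. Tanycyte-like cells thus had 1.94-fold the Hes1 level of astrocyte-like cells (interval, 1.81 to 2.08), and astrocyte-like cells 36.1-fold the Hes5 level of tanycyte-like cells (interval, 31.2 to 42.1). Both directions held in all 4 numbers. Within the tanycyte-like cells Hes1 ran from 362 CPM in the cluster with Gfap to 694 CPM in the cluster led by Mia and Col25a1.

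Hey1 (ENSMUSG00000040289; chr3:8663359-8667256, minus strand), a partner of Hey2 in arterial development, was highest in endothelial-like cells, at 163 CPM (interval, 113 to 226). In numbers 1 to 4 these had 166, 101, 304 and 93.7 CPM, and in number 4 the astrocyte value of 110 CPM was higher. Astrocyte-like cells had 100.4 CPM over all, ependymocyte-like cells 87.1 CPM and OPC-like cells 84.4 CPM. The endothelial level was 1.62-fold that of astrocyte-like cells (interval, 1.11 to 2.29). Only 2 endothelial-like cells had at least 3 UMIs of the arterial marker list, so arterial and other endothelial cells could not be compared.

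**Figure D3:**
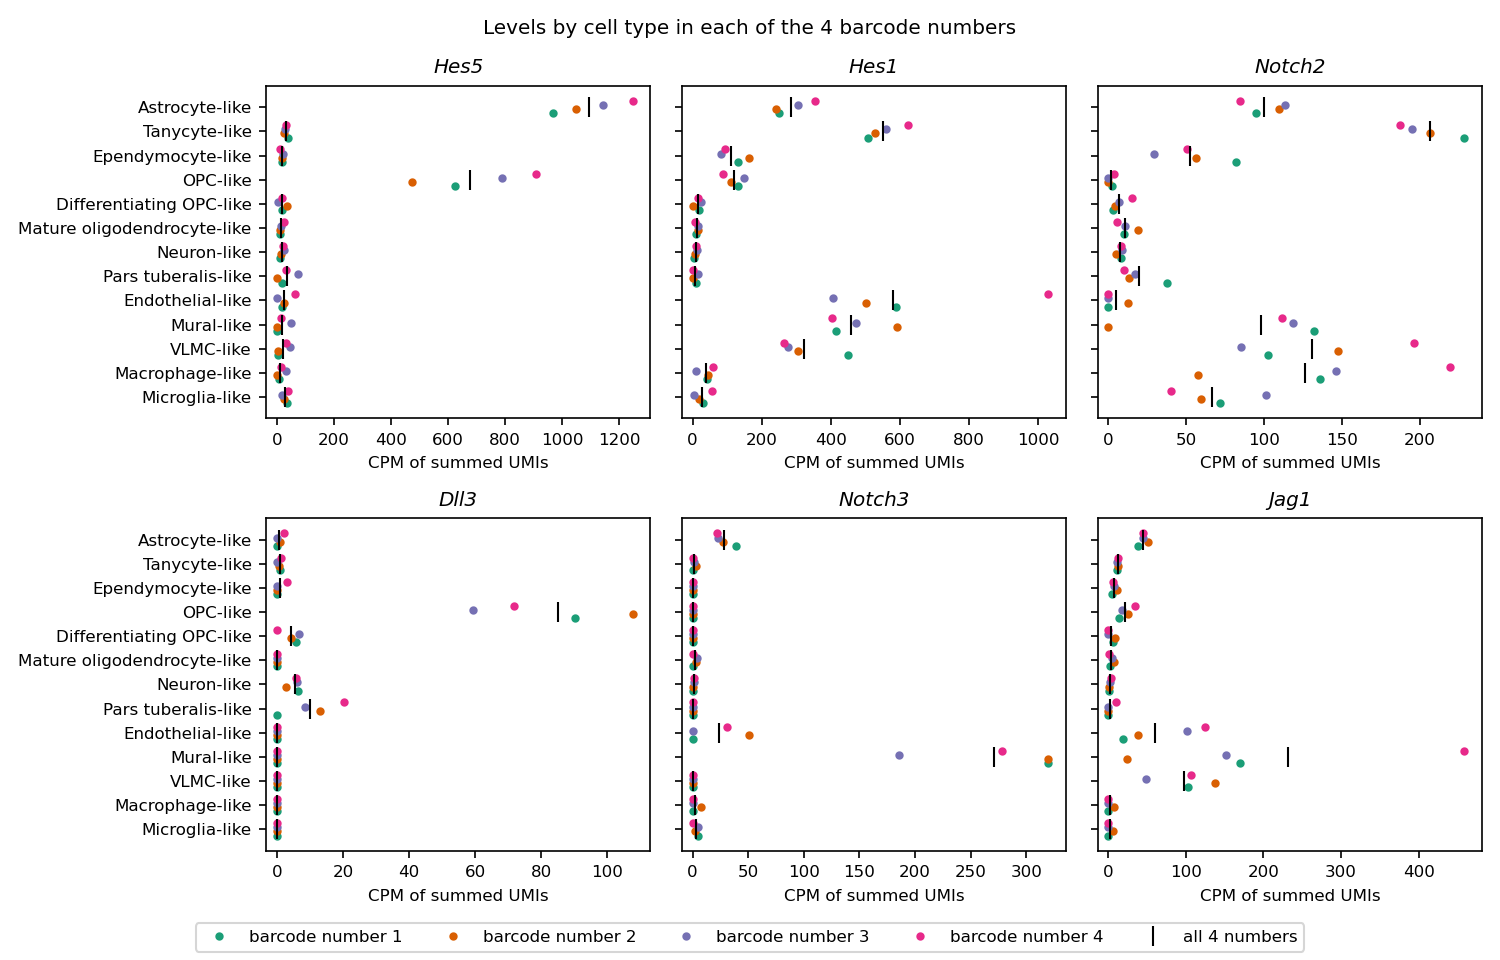
Level of 6 genes (CPM of summed UMIs) in each named cell type, with a point for each of the 4 barcode numbers and a vertical tick for all numbers together. For Hes5 the points of astrocyte-like and OPC-like cells, from 474 to 1247 CPM, stand apart from those of all other types, whereas the mural Jag1 points spread from 24.6 to 459 CPM.

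The step from OPC-like to differentiating OPC-like cells was where Hes5 differed most. The 311 OPC-like cells had 857 Hes5 UMIs and the 129 differentiating OPC-like cells, which carry Bmp4, Enpp6 and Gpr17, had 20. Differentiating OPC-like cells had 17.7, 34.0, 3.32 and 19.3 CPM in numbers 1 to 4, far below the OPC-like values of the same numbers. Over all numbers they had 17.6 CPM (interval, 10.8 to 27.2), with an interval that overlaps that of macrophage-like cells. The ratio of the summed levels was 38.4 (interval, 24.7 to 63.1), a lower bound so far as the UMIs in differentiating cells are free RNA. Differentiating OPC-like cells were more deeply sampled, with a median of 8604 UMIs per cell against 4025. With every cell thinned to 1000 UMIs, 199 Hes5 UMIs remained in OPC-like cells and 2 in differentiating OPC-like cells. The share of cells with a UMI was then 41.2% and 1.55%.

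After that step Hes5 showed no further difference that these counts could resolve. Mature oligodendrocyte-like cells had 12.5, 10.2, 14.5 and 24.1 CPM in numbers 1 to 4 and 15.8 CPM over all. Differentiating OPC-like cells had 1.11-fold that level (interval, 0.643 to 1.85), and were higher in 2 of the 4 numbers.

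The 1106 cells of the lineage were also ordered along a path built without the pathway genes and split into 12 bins. Hes5 had 808, 739 and 514 CPM in the first 3 bins, which held OPC-like cells apart from 2 cells. The fourth bin, with 35 OPC-like and 57 differentiating cells, had 130 CPM (interval, 102 to 164). The 8 bins from the fifth on had 7.03 to 18.5 CPM. Within the OPC-like cells alone, split into 4 equal parts along the path, the part nearest to the differentiating cells had 493 CPM (interval, 416 to 581), below the 678 to 803 CPM of the other 3. Of 3 equal parts of the differentiating cells, the one nearest to the OPC-like cells had 18.01 CPM (interval, 5.85 to 42.03), against 20.6 and 14.3 CPM in the others.

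The other members took 3 courses along the same path. Dll1 and Dll3 were lower at the same step as Hes5. Dll1 had 76 UMIs in OPC-like cells and 2 in differentiating OPC-like cells, or 59.9 and 1.76 CPM, and Dll3 had 85.2 and 4.40 CPM, from 108 and 5 UMIs. All 5 of these Dll3 UMIs were in the part of the differentiating cells nearest to the OPC-like cells. Hes1 was 8.01-fold higher in OPC-like cells (interval, 4.84 to 14.1), with 131, 111, 148 and 86.9 CPM there and 17.7, 0, 23.3 and 15.4 CPM in differentiating cells. In contrast to Hes5, the part of the OPC-like cells nearest to the differentiating cells had the highest Hes1 level. It was 192 CPM (interval, 145 to 249), against 70.9 to 116 CPM in the others.

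Notch1 was lower by degrees. It had 71.0 CPM in OPC-like cells, 18.5 CPM in differentiating cells and 10.2 CPM in the mature type, and the 3 parts of the differentiating cells had 39.6, 16.01 and 7.13 CPM from 11, 7 and 3 UMIs. The OPC-like over differentiating ratio was 3.84-fold (interval, 2.37 to 6.5). Hey1 differed least between the first pair of types among the 6 members with at least 50 UMIs in both together. It had 84.4 CPM in OPC-like cells, 42.3 CPM in differentiating cells and 8.45 CPM in the mature type. The first ratio was 2.00-fold (interval, 1.41 to 2.87) and the second 5.00-fold (interval, 3.21 to 7.84), and both directions held in all 4 numbers. A Hey1 UMI was present in 27.7% of OPC-like, 25.6% of differentiating and 3.90% of mature oligodendrocyte-like cells. Differentiating cells were sampled most deeply, with a median of 8604 UMIs per cell against 4025 in OPC-like and 6150 in mature cells. With every cell thinned to 1000 UMIs the shares were 8.36%, 3.88% and 0.60%, from 28, 5 and 4 Hey1 UMIs. The other 4 members were sparse in both types. Jag1 had 27 and 4 UMIs, a ratio of 6.04 (interval, 2.11 to 23.8), Hey2 had 20 and 9, a ratio of 1.99 (interval, 0.866 to 4.96), Notch2 had 2 and 8, and Notch3 had 0 in both.

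**Figure D4:**
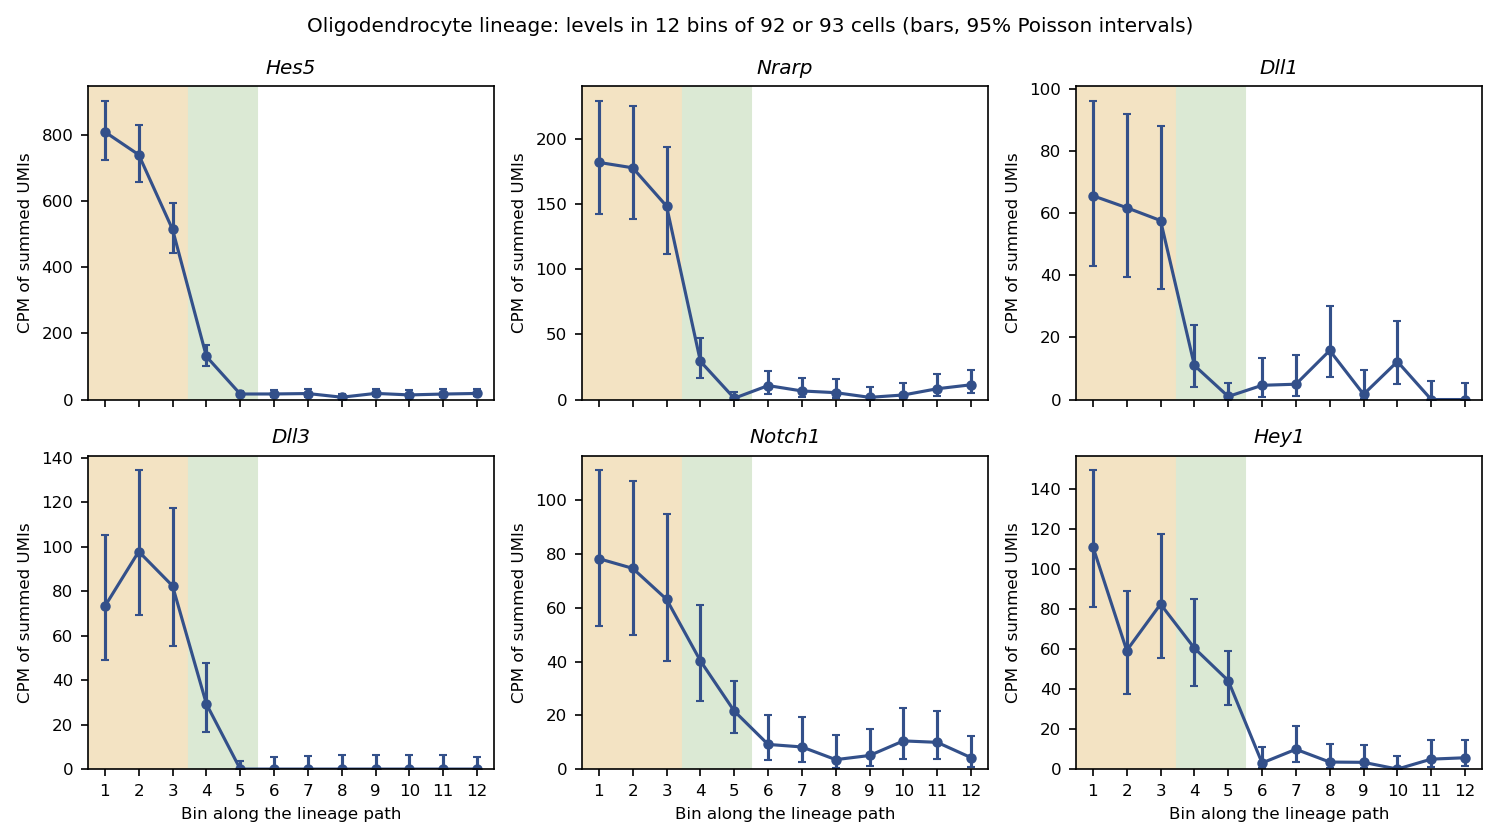
Level of 6 genes (CPM of summed UMIs, points, with 95% Poisson intervals) in 12 bins of oligodendrocyte lineage cells along a path from OPC-like to mature cells; tan marks bins almost wholly of OPC-like cells and green those with differentiating cells. Hes5, Nrarp, Dll1 and Dll3 are at 18.5 CPM or less from the fifth bin on, in which Hey1 still has 44.2 CPM and Notch1 21.6 CPM.

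Set against all genes, the lower levels in differentiating cells covered part of the pathway. A gene was called when log2 of (CPM + 10) differed by at least 1 between the types, among genes with at least 50 UMIs in both together. Of the 6 members that could be compared, 5 were lower (Hes5, Dll3, Dll1, Hes1 and Notch1) and none higher. Among all 6892 genes compared, 12.5% were lower and 6.36% higher. The median difference was -2.48 for the 6 members and -0.15 for all genes. On this scale Hes5 differed by -4.63 and Hey1, which was not called, by -0.85. In the wider list, which holds the members, 11 of 31 genes compared were lower and 0 higher, with a median of -0.50. Without the members 6 of 25 were lower, with a median of -0.39. The members, and some of the other genes, passed the count filter through the OPC-like cells, so the counts are no more than a description.

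Among the other pathway genes, those lower included a target, ligands and modifiers of the receptor. Nrarp, a target that restrains Notch signalling, had 166 CPM in OPC-like cells (127, 169, 178 and 215 CPM in numbers 1 to 4) and 0.881 CPM from 1 UMI in differentiating cells. The non-classical ligands Dner and Cntn1 had 251 and 36.1 CPM, and 920 and 193 CPM. Lfng, which adds sugars to the receptor, had 46.5 and 9.69 CPM, and Dtx3, of a family of ubiquitin ligases tied to Notch, 151 and 70.5 CPM. None of the 8 proteases and their partners that were compared passed 1 log2 unit, nor did any of 5 genes of the nuclear complex. With 12.5% of all genes lower, a count of 0 among so few genes is near the background. Rbpj itself had 29.97 and 37.9 CPM.

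**Figure D5:**
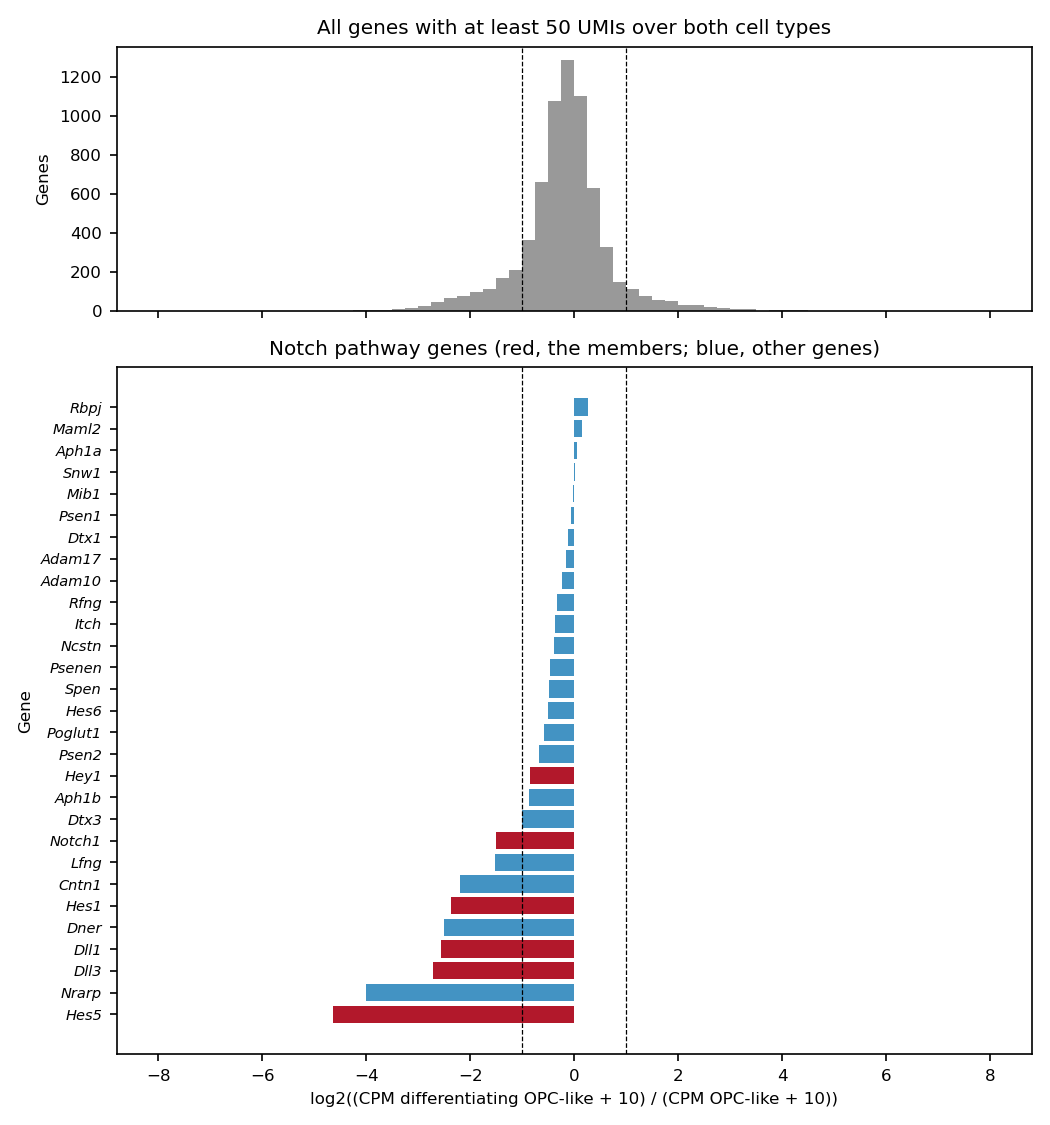
Upper panel, number of genes by log2 difference between differentiating OPC-like and OPC-like cells (pseudocount 10 CPM) for all 6892 genes compared; lower panel, the same difference for the pathway genes compared, less those not reported here, members in red. Dashed lines mark 1 log2 unit either way; Hes5, at -4.63, is the lowest of the pathway genes, and none lies above the upper line.

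Within the OPC-like cells, sets with and without ligand UMIs had similar Hes5 levels. Hes5 had 723 CPM (interval, 656 to 795) in the 140 cells with a UMI of Dll1 or Dll3 and 636 CPM (interval, 577 to 699) in the 171 without. Their median depths were 4040 and 4016 UMIs. Notch1 had 81.8 and 61.7 CPM, with overlapping intervals. Dll1 and Dll3 were both detected in 15 cells, with Dll1 alone in 50 and Dll3 alone in 75. At this depth cells that express a sparse gene can have no UMI of it. In 17 OPC-like cells with at least 2 UMIs of cycling genes, Hes5 had 371 CPM (interval, 252 to 526) against 698 CPM (interval, 651 to 747) in the other 294, and Hes1 had 287 CPM (interval, 184 to 427) against 108 CPM (interval, 90.2 to 129). These 17 cells had 31 Hes5 and 24 Hes1 UMIs. The part of the OPC-like cells nearest to the differentiating cells also had higher Hes1 and lower Hes5. How many of the 17 cells lie in that part was not counted.

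Of the pathway genes outside the 10, some marked types in which the members were high. Dll4, the endothelial ligand of sprouting vessels, had 18 of its 22 UMIs in endothelial-like cells (83.7 CPM). Egfl7, secreted by endothelium, had 1377 CPM there and 49.0 CPM in neuron-like cells. Astrocyte-like cells, where Hes5 was highest, also had the highest Lfng, 662 CPM against 108 CPM in tanycyte-like cells, and the highest Nrarp, 403 CPM against 178 CPM in mural-like and 166 CPM in OPC-like cells. Tanycyte-like cells, with high Notch2 and Hes1, had 11.6 CPM of Nrarp. Cntn1 was highest in OPC-like cells at 920 CPM, Neurl1b, which helps ligands to be taken up, in mural-like cells at 84.5 CPM, and Hes6, an inhibitor of Hes1, in pars tuberalis-like cells at 242 CPM. Rbpj was highest in macrophage-like cells at 92.5 CPM, Numb, which opposes Notch, in microglia-like cells at 52.2 CPM, and Fbxw7, which marks the freed receptor for breakdown, in neuron-like cells at 83.9 CPM. For Numb the next type was endothelial-like cells, at 23.3 CPM from 5 UMIs. That ratio was 2.25, with an interval, 0.918 to 7.13, that includes equality.

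The genes with patterns most like those of the members over the 13 types were found by Pearson's r of log2(CPM + 10) among 11016 genes with at least 200 UMIs. The 13 points share libraries and depths, and no p is given. Hes5 was most like Ephb3 (0.97), Extl1 (0.96) and Ndp (0.96), and Notch3 like Atp13a5 (0.99), Itga7 (0.97) and Hspb7 (0.93). Jag1 was most like Pdgfrb (0.96), Lpp (0.96) and Rit1 (0.94), and Hes1 like Cdc42ep4 (0.92), Emp2 (0.91) and Fkbp10 (0.89). Hey1 was nearest to Kifc3 (0.91), Slc38a3 (0.90) and Myo10 (0.88), Hey2 to Eral1 (0.89), Plce1 (0.89) and Sdhc (0.88), and Notch1 to Decr1 (0.95), Pkn2 (0.88) and Slc38a3 (0.85). For Notch2 the nearest were Renbp (0.85), Agtrap (0.84) and Cd63 (0.83), the lowest of these values. Dll1 and Dll3, with fewer than 200 UMIs each, were not compared in this way.

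In 211 cells of an unnamed cluster led by Fxyd1, Dynlrb2 and Dio3, Hes1 was at 526 CPM and Notch2 at 104 CPM. An unnamed cluster of 41 cells led by Mgp, Fxyd5 and Igfbp6 had 611 CPM of Hes1 and 184 CPM of Notch2. Neither had Hes5 above 13.7 CPM.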

How the data were processed

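Cells of the mouse median eminence were captured on a 10x Chromium instrument, and 3′ UMIs were counted by the authors with Cell Ranger 2.0 on GRCm38 (mm10). The deposited matrix holds raw UMI counts for 27998 genes in 5982 cells, the number of cells the study gives, and pools 4 libraries (7806887, 6508038, 7243332 and 7730641 UMIs for barcode numbers 1 to 4). Such counts do not scale with transcript length. Symbols for 27645 genes came from GENCODE vM21, of the same build. No column belonged to another series (0 columns left out).

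The members, marker lists and pathway list were chosen with earlier results of these data known. With scanpy 1.11.5 in Python 3.11.15, each cell was scaled to the median depth before a log transform, 2000 variable genes were taken without 14 pathway genes among them, and 30 principal components, 15 neighbours and Leiden clustering at resolution 1 were used. A cluster was named where its marker score was at least 0.3 and 1.5 times the next, at least 3 markers exceeded the median cluster 4-fold, and no other list had more markers among its 10 leading genes. Left out were 3 cells with at least 10% haemoglobin UMIs; 50 cells called doublets by Scrublet (0.836%) were kept. The mural, Dll and cycling sets, the parts of OPC-like and differentiating cells and the astrocyte comparison were described after values were seen.

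Named genes were all members, pathway genes at 50 CPM or more and 2 times the next type in their highest type, those past 1 log2 unit between OPC-like and differentiating OPC-like cells, and the 3 most similar genes of each member with at least 200 UMIs. Other pathway genes named (Rbpj in the lineage, Heyl) were chosen after their values were seen. The planned edgeR test of refed against fasted cells could not be made, since no label ties cells to condition. No p-value was computed, as the cells form 1 sample. A count of 0 allows up to 3 counts. Calls and intervals were tried on simulated Poisson counts. These hold no spread between cells or libraries beyond counting error, so the trial says nothing about such spread. Alternatives were other clusterings, filters, thinning, each barcode number left out, other pseudocounts and other UMI minimums. Some genes that the rule names are not reported here. Promoters were RefSeq sequences of GRCm38.p6; Hes1 and Hey1 had none in the table.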

Additional observations from a re-analysis of the deposited data

How the results depend on the processing

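No paired analysis was possible because the replicate numbers of the labels cannot be matched to barcode numbers; cell types were compared within each barcode number as values, with no test over these unmapped samples. The log2 ratio of Hes5 in OPC-like over differentiating OPC-like cells, 5.26, ranged from 4.92 to 5.64 over 13 alternatives, and that of differentiating over mature cells, 0.15, from -0.22 to 0.44, within counting error. Of the 10 members, 9 or 10 kept their highest type in each of 11 alternatives. The tanycyte-like group was not stable in size. Its 1423 cells became 1115 at Leiden resolution 0.5, 1028 at resolution 2 and 1307 with pathway genes kept. They were 1124 with doublets left out and 1047 with the mitochondrial filter, and K-means with 9 clusters gave 1625. Unnamed cells rose from 271 to between 387 and 646 in the first 5 of these. The 11 pathway genes lower in differentiating cells became 6 with a minimum of 200 UMIs, which leaves fewer genes, and 8 to 13 otherwise (10 to 11 with a barcode number left out). The 0 higher became 1 at Leiden resolution 0.5, with doublets left out, with the lineage clustered alone and with a pseudocount of 1 CPM, and was 0 to 1 with a number left out; the cause was not tested. The 4 members called in 1 cell type became 2 with a pseudocount of 50 CPM and were 3 to 5 otherwise (4 to 5 with a barcode number left out), with Jag1 no longer called in 4 of 13 alternatives. Of 115 recomputed log2 ratios of single members, 6 moved by more than counting error and 0 turned a direction that its interval had set. Without number 4, mural over VLMC Jag1 moved from 1.25 to 0.39, Notch2 of the highest over the next type from 0.66 to 0.98, and Hes1 likewise from 0.07 to -0.27, as it did to -0.25 in thinned cells. Notch3 went from 3.26 to 3.78 when thinned. With astrocyte-like cells split alone by K-means into 1025 and 395 cells, a check added after the data were seen, Notch2 went from 2.80 to 3.67. K-means with 9 clusters named only 5 types and gave no count of highest types. Sparse members (Dll1, Dll3, Notch3, Hey2) are limited by 164 to 322 UMIs each.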

Other observations

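Among mature oligodendrocyte-like cells, a cluster of 79 cells had higher levels of 2 members, Hey1 and Notch1. Hey1, the repressor that was still present in differentiating cells, was at 24.04 CPM there (interval, 15.2 to 36.1), against 4.73 and 2.06 CPM in the clusters of 534 and 53 cells. Notch1 was at 26.1 CPM (interval, 16.9 to 38.6), against 5.68 and 8.25 CPM. The others did not follow: Hes5 was at 14.6 CPM there against 16.7 and 12.4 CPM, Hes1 at 7.32 against 14.5 and 0 CPM, and Dll3 had no UMI in any of them. The cluster of 79 cells had a median of 11306 UMIs per cell, against 5827 and 8394 in the other clusters. Its score for the differentiating OPC markers was 0.107, against 0.0302 and 0.0618. Whether its cells stand earlier in the lineage was not tested. These clusters were compared after their values were seen, and no test was made.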
